A study of Mus musculus with 4 samples.

Results

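The tumour necrosis factor (TNF) superfamily is a set of cytokine ligands and the receptors that bind them, and 37 genes selected by name were examined on Affymetrix Mouse Genome 430 2.0 arrays of mouse spleen dendritic cells (DCs). A probe set, a group of short oligonucleotides that reads 1 transcript, was taken when its only platform gene symbol began with Tnfsf or Tnfrsf and a digit or was Tnf, Lta, Ltb, Ltbr, Cd40, Cd27, Cd70, Fas, Fasl or Relt. This gave 59 of 45037 probe sets and 37 of 18193 genes, which are 12 ligand genes, 24 receptor genes and Tnfsf13os, an antisense RNA that encodes no ligand and read within background on every array. Cd40lg and Eda fall outside the rule by their names, and 3 further probe sets assigned to several genes of the family were not used. CD8α+ DCs and CD8α− DCs of C57BL/6 mice had 2 arrays each, 4 in all, with no treatment, time or age in the labels. How the cells were sorted from the spleen is not described there, and the sources describe the RNA work in conflicting ways, as total RNA labelled through cRNA and as purified mRNA labelled as cDNA. Nothing in the labels says that arrays of a population came from separate animals, so p-values measure the spread between these arrays, which may be technical.

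Ligands of this family are mostly trimeric membrane proteins, some of which are shed, and each cell that carries one can signal to neighbours bearing the receptor. Receptors with a death domain, such as Fas and TNF receptor 1, can start apoptosis through FADD and caspase-8 or NF-κB signalling through TRADD and RIPK1. Most of the other receptors recruit TRAF adaptors, which lead to NF-κB and MAP kinase activation. Tnfrsf11b, Tnfrsf22 and Tnfrsf23 are grouped apart from these, as soluble or decoy receptors. In dendritic cells the family is known for CD40, through which helper T cells license the cell, for ligands that costimulate T cells, for lymphotoxin signals that maintain splenic DCs, and for BAFF, which supports B cells.

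Of the 8 family genes called lower in CD8α+ cells, 5 were ligands. The ligands LIGHT (Tnfsf14), lymphotoxin beta (Ltb), TNF (Tnf), 4-1BB ligand (Tnfsf9) and BAFF (Tnfsf13b) and the receptors TACI (Tnfrsf13b), Fn14 (Tnfrsf12a) and Fas were dimmer in CD8α+ cells at an unadjusted p under 0.05, by 1.0 to 2.91 log2 units. OX40 (Tnfrsf4) was brighter by 1.37. With limma, 0 of 22519 tested probe sets had an adjusted p under 0.05 (15.5% had an unadjusted one), so these calls are unadjusted throughout, and 16.0% of 10532 tested genes reached that level (7.13% brighter and 8.82% dimmer in CD8α+ cells). Of the 23 family genes with a probe set above the filter on mean signal, 1 was brighter (4.35%), 8 were dimmer (34.8%) and 14 were not called, with a median difference of -0.51 against -0.02 over all genes tested. By probe set, 1 of 30 was brighter and 9 were dimmer, against 7.75% and 7.79% of all tested probe sets. Of the ligands 8 of 12 were tested, 0 brighter and 5 dimmer, and of the receptors 15 of 24, 1 brighter and 3 dimmer. In 4 tested genes, Ltb, Tnfrsf13b, Tnfsf10 and Tnfrsf11a, the mean of the dimmer population lay below the filter, so they were tested through the other population, and these counts describe the tested genes only. In RNA of whole populations, fewer cells of a type and less RNA per cell cannot be told apart. An exact permutation test of 2 arrays against 2 cannot give a two-sided p below 0.333 and was not used.

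The arrays were not alike in brightness or in their 3′ to 5′ control ratios, and the part of this in the results was not tested. Median deposited signals ran from 17.4 on CD8α− replicate 2 to 35.1 on CD8α− replicate 1, so signals were quantile normalized, and each difference below is the normalized log2 signal of CD8α+ cells less that of CD8α− cells, ± its standard error in limma, with n = 2 arrays per population. The Gapdh 3′ to 5′ control ratio was 10.7 on CD8α− replicate 2 and 1.53 to 2.02 on the other arrays, while that of Actb was 0.76 on CD8α− replicate 2 and 1.62 to 1.69 on the others. Among the 30 tested family probe sets, 3 differed over 2-fold between the CD8α+ arrays and 9 between the CD8α− arrays. Among all tested probe sets, 8.47% and 32.2% did so. Background was taken as the highest of 27 Bacillus control probe sets, which read 20.1 to 39.6 as deposited. All 5 Cd8a probe sets read above both CD8α− arrays on both CD8α+ arrays. Of the tested conventional type 1 DC markers 8 of 9 were brighter in CD8α+ cells and 0 dimmer, and of type 2 markers 6 of 7 were dimmer and 0 brighter.

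Transcripts that mark other blood cells, several of which make TNF family proteins themselves, were also measured. The summed normalized signal of 9 natural killer (NK) cell markers was 1081 and 1254 on the CD8α+ arrays and 4117 and 2641 on the CD8α− arrays, with 5 of 9 dimmer in CD8α+ cells. For 7 neutrophil markers the sums were 6991 and 7612 against 14574 and 11784, with 4 of 6 tested dimmer. S100a8 (2487 and 2852 against 5542 and 4465) and S100a9 (3797 and 4025 against 6984 and 4517) made up most of these sums. Of this pair, S100a9 was not called. For 9 monocyte and macrophage markers the sums were 1155 and 1188 against 1950 and 2887, with 3 of 5 tested dimmer and Vcam1 brighter. Plasmacytoid DC markers, 7 in all, summed to 1026 and 1175 against 1735 and 2525, with 2 of 6 tested dimmer (Tcf4 and Spib). Most of these sums came from Tcf4, at 650 and 762 against 1198 and 1808. Ccr9 (2.21 ± 1.12) and Siglech (0.66 ± 0.52) lay the other way and were not called. The 9 T cell markers summed to 584 and 779 against 612 and 636 with 0 of 8 tested called, and the 9 B cell markers to 333 and 324 against 295 and 462, with 1 of 4 tested brighter and 1 dimmer. Above background on no array were 3 of 9 B cell genes (Pax5, Fcer2a and Vpreb3), 1 of 9 T cell genes (Lat), 1 of 9 monocyte and macrophage genes (C1qc), 1 of 7 neutrophil genes (Elane) and 0 of the NK cell and plasmacytoid DC genes. Above it on all 4 arrays were Cd79b, Ms4a1 and Blk of the B cell list. So were Cd3d, Cd3e, Cd3g, Cd5 and Cd247 of the T cell list and S100a8, S100a9, Mpo, Camp and Ngp of the neutrophil list. The NK cell list added Klrd1, Gzma, Gzmb, Prf1 and Klrk1. The monocyte and macrophage list added Ccr2, Adgre1, Cd68 and Vcam1, and the plasmacytoid DC list Bst2, Tcf4 and Spib. The part of these cell types in the family differences below was not tested.

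**Figure D1:**
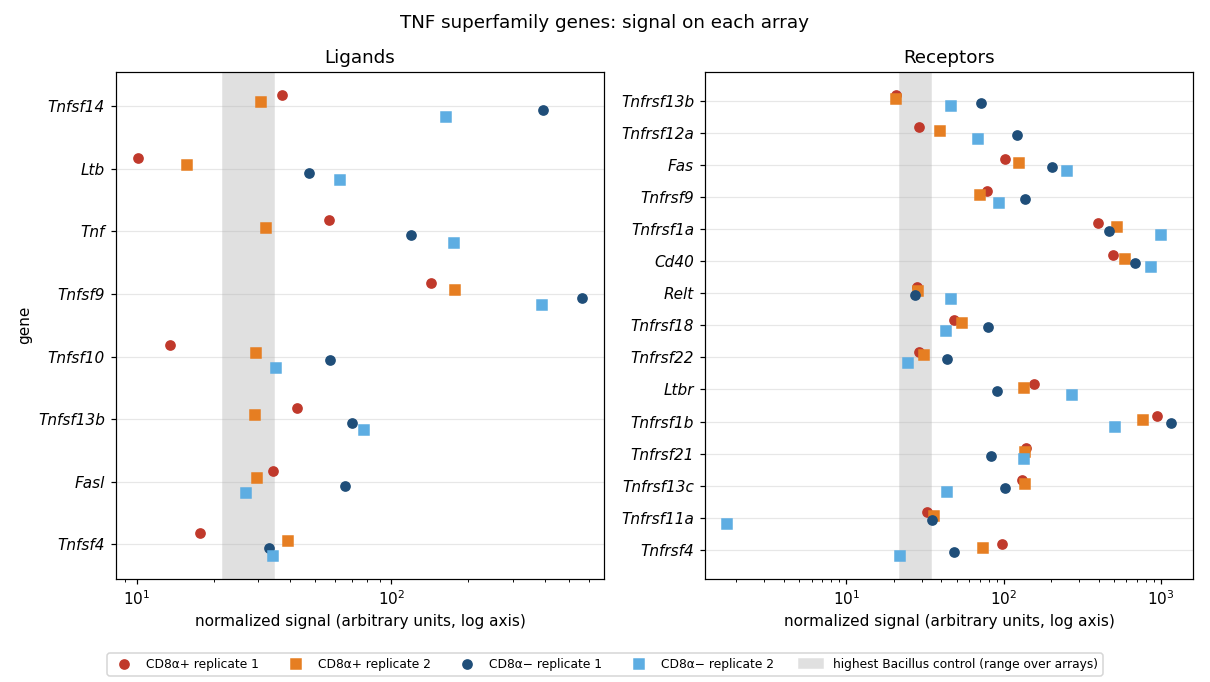
Normalized signal (log axis, arbitrary units) of the 23 tested genes on each of the 4 arrays, by the probe set that represents each gene, ligands on the left and receptors on the right, ordered by the difference between populations. The grey band is the range of the highest Bacillus control over the arrays, and signals of different genes come from different probes and are not comparable. For Tnfsf14, Ltb, Tnf and Tnfsf9 both CD8α− points lie to the right of both CD8α+ points.

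Some ligand genes of the family sit in 2 gene clusters. In the RefSeq table of assembly GRCm38.p6, Ltb, Tnf and Lta follow one another on chromosome 17, and Tnfsf9, Cd70 and Tnfsf14 are consecutive protein-coding genes on the same chromosome. Thus 4 of the 5 dimmer ligands lie in these 2 groups. Lta and Cd70, the other member of each group, did not pass the filter. The tested ligands outside these groups were Tnfsf13b, which was dimmer, and Tnfsf4, Tnfsf10 and Fasl, which were not called. Whether gene position has a part in the differences was not tested. Among receptors, Tnfrsf4 and Tnfrsf18 are neighbours on chromosome 4, and only the first of them was called.

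The promoter table of RefSeq (GRCm38.p6) held a window for 29 of the 37 genes, 33 windows in all, each running from 250 bases before to 50 bases after a start site. Windows were searched on both strands for the NF-κB consensus and for GAGGAA, a core bound by ETS factors such as PU.1, which do not overlap in the sequences shown. The 250 bases before the start are printed for the dimmer ligands Ltb, Tnf and Tnfsf14, which lie in those clusters, and for Tnfrsf4, the gene that was brighter, in the direction of transcription with every match to either motif in capitals. Ltb is at chr17:35194257-35194506 on the plus strand, Tnf at chr17:35202008-35202257 on the minus strand, Tnfsf14 at chr17:57194182-57194431 on the minus strand and Tnfrsf4 at chr4:156013445-156013694 on the plus strand.
Ltb: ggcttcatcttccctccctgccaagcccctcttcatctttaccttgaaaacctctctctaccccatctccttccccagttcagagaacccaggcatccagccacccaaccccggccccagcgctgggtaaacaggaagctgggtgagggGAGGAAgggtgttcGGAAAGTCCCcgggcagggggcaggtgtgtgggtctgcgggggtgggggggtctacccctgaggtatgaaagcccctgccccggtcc
Tnf: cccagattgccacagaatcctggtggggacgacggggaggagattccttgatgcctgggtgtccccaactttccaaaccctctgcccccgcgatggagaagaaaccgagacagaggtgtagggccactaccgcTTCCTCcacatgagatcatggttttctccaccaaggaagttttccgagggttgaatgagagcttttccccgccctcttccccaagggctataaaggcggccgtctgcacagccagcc
Tnfsf14: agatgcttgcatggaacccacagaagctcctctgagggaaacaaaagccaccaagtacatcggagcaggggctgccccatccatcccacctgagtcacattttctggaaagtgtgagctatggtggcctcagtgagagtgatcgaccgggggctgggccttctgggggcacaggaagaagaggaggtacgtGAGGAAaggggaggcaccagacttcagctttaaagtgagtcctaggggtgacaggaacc
Tnfrsf4: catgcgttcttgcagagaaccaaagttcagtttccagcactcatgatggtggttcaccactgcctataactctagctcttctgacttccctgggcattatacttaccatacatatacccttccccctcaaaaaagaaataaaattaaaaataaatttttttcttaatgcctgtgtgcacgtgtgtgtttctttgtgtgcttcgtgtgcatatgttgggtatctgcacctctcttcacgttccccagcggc

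In the Ltb window the NF-κB consensus occurs on the opposite strand as GGGACTTTCC, starting 87 bases before the start site, with GAGGAA 101 bases before it. The Tnf and Tnfsf14 windows hold GAGGAA (in Tnf as TTCCTC, its reverse complement) and no NF-κB consensus, and the Tnfrsf4 window holds neither. A further GAGGAA match of Tnfsf14 lies after its start site. Among all family windows, the NF-κB consensus was found in those of Ltb, Tnfrsf8 and Tnfrsf9, 3 of 33 windows or 9.09%, against 4.51% of all 32851 windows. GAGGAA was found in 11 of 33, or 33.3%, against 28.3%. A match describes the letters only, and the absence of one covers this window only.

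LIGHT, a ligand of HVEM (Tnfrsf14) and the lymphotoxin beta receptor that costimulates T cells, showed the widest gap. Its representative probe set read 41.0 and 29.3 as deposited on the CD8α+ arrays and 419.7 and 81.0 on the CD8α− arrays. The populations did not overlap, and CD8α− replicate 1 was far above replicate 2. The fitted difference was -2.91 ± 0.53, a 7.52-fold lower signal in CD8α+ cells (limma adjusted p = 0.139 over genes). The other Tnfsf14 probe set read 13.4 and 15.0 against 112.8 and 71.2, again without overlap, and was within background on both CD8α+ arrays. Its difference was -3.10 ± 0.37, at least 4.60-fold (limma adjusted p = 0.115 over probe sets). Such a bound divides the brighter population's mean by a mean in which each dim array counts at its background unless its own signal is larger. Tnfsf14 kept an unadjusted p under 0.05 and its direction in all 13 alternative analyses.

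Lymphotoxin beta, which anchors lymphotoxin to the cell surface and signals through the lymphotoxin beta receptor, read 11.4 and 14.7 on the CD8α+ arrays against 60.1 and 37.0 on the CD8α− arrays. It was within background on both CD8α+ arrays and above it on both CD8α− arrays. The difference was -2.11 ± 0.40, at least 2.10-fold (limma adjusted p = 0.144 over genes). It was called in 11 of 12 alternatives, the exception being without CD8α+ replicate 1, at -1.79.

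TNF, the inflammatory cytokine that gives the family its name, read 66.8 and 31.0 on the CD8α+ arrays and 130.6 and 86.5 on the CD8α− arrays. All arrays were above background and the populations did not overlap, although the CD8α+ arrays differed by 0.82 log2 units. The difference was -1.76 ± 0.45, or 3.38-fold (limma adjusted p = 0.210 over genes). It was no longer called without CD8α+ replicate 2 (-1.35) or CD8α− replicate 2 (-1.48) or on the deposited scale (-1.22).

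For 4-1BB ligand, which costimulates T cells through Tnfrsf9, the deposited signals were 188.8 and 251.6 in CD8α+ cells and 591.9 and 184.8 in CD8α− cells and overlapped. After normalization they were 143 and 177 against 562 and 393, with no overlap. Only after the arrays were matched did CD8α− replicate 2 exceed the CD8α+ arrays. The difference was -1.56 ± 0.36, or 2.95-fold (limma adjusted p = 0.182 over genes), and -0.60 on the deposited scale, where it was not called, nor was it with median centring (also -0.60) or without either CD8α+ replicate (-1.41 and -1.71).

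BAFF, the survival factor of B cells, was read by 3 probe sets that gave unlike values. The representative one read 47.6 and 27.5 against 81.7 and 43.9 as deposited, and 42.5 and 29.1 against 70.1 and 78.1 after normalization. Its difference was -1.07 ± 0.36, or 2.10-fold (limma adjusted p = 0.272 over genes). A further tested probe set read 35.8 and 28.4 against 52.4 and 17.9, a difference of -0.02 ± 0.37, and the third was within background on all arrays. BAFF was called in 4 of 12 alternatives. Averaging the tested probe sets gave -0.54, the deposited scale and median centring gave -0.73, and leaving out an array gave -0.80 to -1.35, none of them called.

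The other ligands were near background. TRAIL (Tnfsf10), which engages death receptors, read 14.9 and 27.8 against 69.4 and 23.9, and its difference of -1.17 ± 0.54 was not called. Fas ligand read 37.4 and 28.1 against 77.4 and 18.9, with a difference of -0.40 ± 0.53 whose sign turned to 0.24 without CD8α− replicate 1. Its other probe set, not tested, read 2.10 and 3.50 against 24.8 and 27.2. OX40 ligand (Tnfsf4) read 19.1 and 39.9 against 45.4 and 23.4, with a difference of -0.36 ± 0.49. Cd70, Lta, Tnfsf8 and the RANK ligand Tnfsf11 did not pass the filter, and of these only Lta and Tnfsf11 exceeded background on any array, each on CD8α+ replicate 2 alone.

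**Figure D2:**
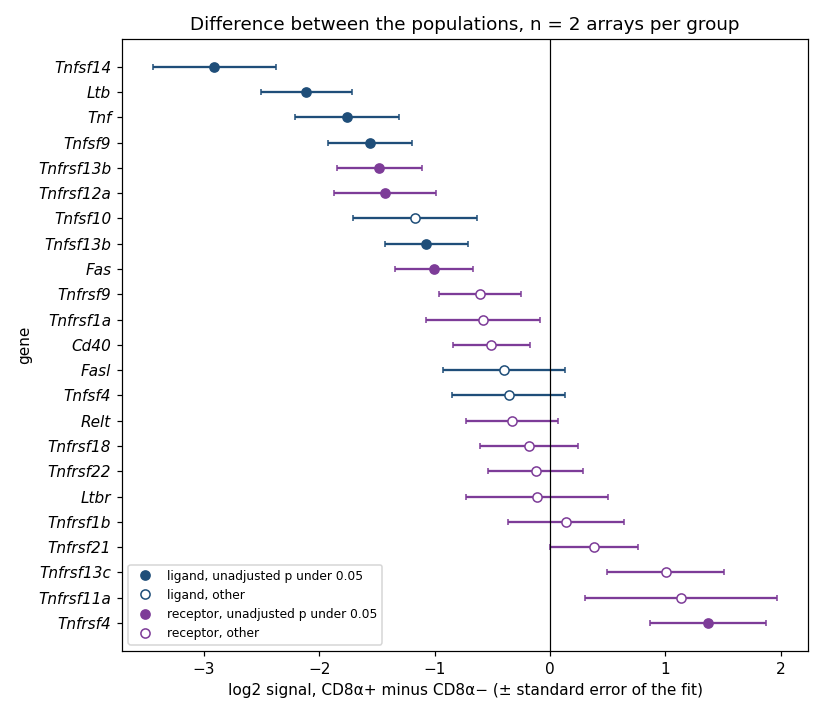
Difference in log2 signal between CD8α+ and CD8α− cells for the 23 tested genes, with the standard error of the limma fit and n = 2 arrays per population. Filled points have an unadjusted p under 0.05. Filled points on the left are 5 ligands and 3 receptors, and Tnfrsf4 is the filled point on the right at 1.37.

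Among receptors of the BAFF group, TACI (Tnfrsf13b), which binds BAFF and APRIL, read 22.4 and 18.9 in CD8α+ cells and 83.1 and 29.5 in CD8α− cells. It was within background on both CD8α+ arrays and above it on both CD8α− arrays. The difference was -1.48 ± 0.37, at least 2.22-fold (limma adjusted p = 0.203 over genes). BAFF receptor (Tnfrsf13c) lay the other way, at 169.6 and 189.6 against 113.7 and 28.2, without overlap but with an uncalled difference of 1.0 ± 0.51. Its CD8α− arrays were 1.23 log2 units apart after normalization. The third receptor of this group, BCMA (Tnfrsf17), read 1.5 to 22.5 and was within background on all arrays. TACI was not called without either CD8α+ replicate (-1.49 and -1.48) or on the deposited scale (-1.27).

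Of the death domain receptors, Fas read 129.0 and 171.9 on the CD8α+ arrays and 217.6 and 118.8 on the CD8α− arrays as deposited, which overlap. After normalization the values were 101 and 125 against 203 and 252, with a difference of -1.0 ± 0.34 or 2.01-fold (limma adjusted p = 0.274 over genes). On the deposited scale the difference was -0.11, and it was not called there, with median centring (-0.11), or without CD8α+ replicate 1 (-0.85) or 2 (-1.16). TNF receptor 1 (Tnfrsf1a) read 548.8 and 756.5 against 490.0 and 487.0, higher in both CD8α+ arrays as deposited. After normalization it was 396 and 521 against 464 and 994, with a difference of -0.58 ± 0.49 and a 95% interval from -1.89 to 0.74. Its sign as fitted therefore depended on the scaling. Relative to the median difference of all genes it was negative under every scaling, from -0.56 to -0.23. DR6 (Tnfrsf21) read 182.5 and 189.9 against 94.3 and 68.3, with a normalized difference of 0.38 ± 0.38 and an interval from -0.63 to 1.39. The TRAIL receptor Tnfrsf10b and Tnfrsf25 did not pass the filter.

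OX40 (Tnfrsf4), best known as a costimulatory receptor of T cells, was the family gene called brighter in CD8α+ cells. It read 122.6 and 91.0 on the CD8α+ arrays and 61.3 and 15.4 on the CD8α− arrays. The populations did not overlap, and CD8α− replicate 2 was within background, so no fold is given. The difference was 1.37 ± 0.51 (limma adjusted p = 0.306 over genes) with an interval from 0.02 to 2.71. It was called in 5 of 12 alternatives and kept its direction in each of the 12. It was not called on the deposited scale, with a common trimmed mean, without the filter or with a floor of 1. Without CD8α− replicate 2 it was 0.80 and without CD8α+ replicate 1 or 2 it was 1.17 or 1.57, none of them called. None of the 8 tested T cell markers was called, with differences from -0.89 (Cd28) to 0.84 (Cd5). The part of T cells in the OX40 difference was not tested.

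Fn14 (Tnfrsf12a), the receptor of TWEAK, read 31.4 and 40.4 in CD8α+ cells against 133.3 and 39.4 in CD8α− cells. After normalization the values were 29.0 and 39.5 against 122 and 68.1, and CD8α+ replicate 1 was within background. The difference was -1.43 ± 0.44 (limma adjusted p = 0.252 over genes). A cross-hybridizing probe set gave -1.84 ± 1.02, with CD8α+ arrays at 60.6 and 2.60. Fn14 was not called on the deposited scale (-1.02), with median centring (-1.02), or without CD8α+ replicate 1 (-1.21), CD8α+ replicate 2 (-1.65) or CD8α− replicate 1 (-1.01).

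The receptors with well-measured signal in both populations mostly showed no called difference. CD40 was read by 3 probe sets, of which the representative read 686.9 and 853.3 against 725.8 and 412.4 as deposited. Its normalized difference was -0.51 ± 0.33, and those of the other probe sets were -0.13 ± 0.36 and -0.46 ± 0.35, all above background on every array. The interval of the first ran from -1.40 to 0.38, and its sign turned to 0.48 on the deposited scale and 0.49 with median centring. Relative to the median difference of all genes it stayed negative under every scaling, from -0.49 to -0.15. TNF receptor 2 (Tnfrsf1b), which binds membrane TNF, read 1269 and 1099 against 1236 and 240.0, so that 1 CD8α− array matched the CD8α+ arrays and the other was far below. Its difference was 0.14 ± 0.51, with an interval from -1.21 to 1.49. Lymphotoxin beta receptor (Ltbr) read 206.1 and 187.0 against 101.2 and 127.7, brighter in both CD8α+ arrays as deposited. Normalized it was 155 and 135 against 89.8 and 272, with a difference of -0.11 ± 0.62, an interval from -1.75 to 1.53 and a sign that turned with the scaling.

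The 4-1BB receptor (Tnfrsf9) read 96.0 and 86.3 against 146.1 and 50.6, with a difference of -0.61 ± 0.35, and GITR (Tnfrsf18) read 55.1 and 61.7 against 89.7 and 27.8, with -0.18 ± 0.43. RANK (Tnfrsf11a) read 35.6 and 35.9 against 47.3 and 1.5, so its difference of 1.14 ± 0.83 came from CD8α− replicate 2 and was -0.02 without it. Relt (-0.33 ± 0.40) and Tnfrsf22 (-0.12 ± 0.41) stayed close to background. Cd27, Tnfrsf8, Tnfrsf11b, Tnfrsf14, Tnfrsf19 and Tnfrsf23 did not pass the filter. Counting all probe sets, 15 of the 59 exceeded background on all 4 arrays, 24 on 1 to 3 arrays and 20 on none, and 9 of the 37 genes had no probe set above background on any array.

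**Figure D3:**
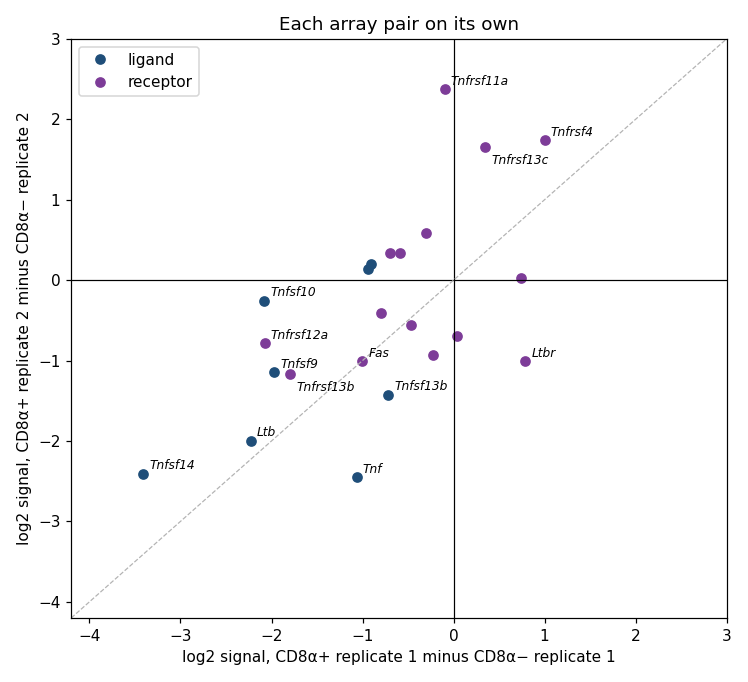
Each point is 1 tested gene, with the log2 difference between CD8α+ and CD8α− replicate 1 on the horizontal axis and between CD8α+ and CD8α− replicate 2 on the vertical axis, and the dashed line marks equal differences. The lower left quadrant holds 12 of the 23 genes, Tnfsf14 (-3.41 and -2.41) and Ltb (-2.23 and -2.0) among them. Ltbr and Tnfrsf11a lie on opposite sides of 0.

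The array pairs share no array, and each gives the family differences on its own. Both pairs were negative for 12 of 23 genes and positive for 3, and the pairs disagreed in sign for 8. Over all genes tested both were negative for 33.7% and both positive for 30.1%. Both pairs were below -1 for 6 family genes, Fas, Ltb, Tnf, Tnfrsf13b, Tnfsf9 and Tnfsf14, against 6.30% of all genes. The populations did not overlap, after normalization, for 3 family genes with CD8α+ arrays above and 11 with CD8α− arrays above, against 25.6% and 28.3% of all genes tested (53.9% in either direction).

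**Figure D4:**
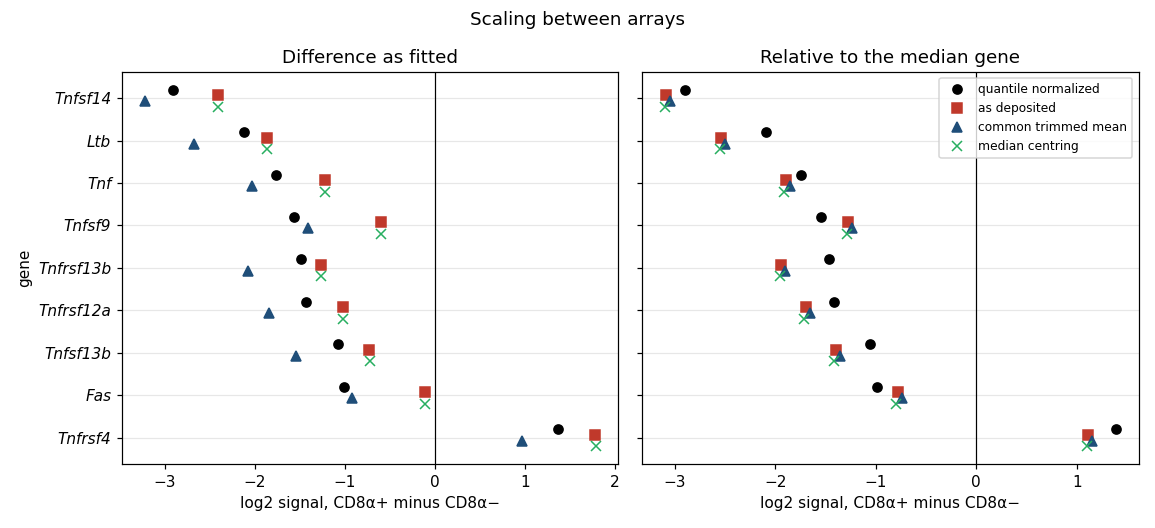
Differences of the 9 called family genes under 4 ways of scaling the arrays, as fitted (left) and after subtracting the median difference of all genes under the same scaling (right). On the right, each of the 8 dimmer genes stays below 0 and Tnfrsf4 stays above 0 under every scaling.

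Other ways of scaling the arrays moved the median difference of all genes, and single genes by unequal amounts. The median gene stood at 0.67 log2 units on the deposited scale, -0.18 with a common trimmed mean and 0.69 with median centring. Relative to that shift, all 9 called genes kept their direction under the 3 other scalings. With quantile normalization included, Tnfsf14 ran from -3.10 to -2.89 and Ltb from -2.55 to -2.09. Over the same scalings Fas ran from -0.99 to -0.74 and Tnfrsf4 from 1.10 to 1.39. On the deposited scale only Ltb and Tnfsf14 were called. Without CD8α+ replicate 1 the calls were Tnf and Tnfsf14, when 5.25% of all genes were called, and without CD8α+ replicate 2 they were Ltb and Tnfsf14, when 6.23% were. Without CD8α− replicate 1, 3 family genes were brighter and 9 dimmer, when 44.1% of all genes were called, and without CD8α− replicate 2 the counts were 2 and 8, when 28.2% were.

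Of the genes that act with these receptors, 5 of 37 tested were called, against 16.0% of all genes tested, which is not a result about the list. Of 43 adaptor, kinase, effector, inhibitor and sheddase genes listed, 37 were tested, 1 was brighter (2.70%, against 7.13% of all genes), 4 were dimmer (10.8%, against 8.82%) and 32 were not called, with a median difference of -0.14. Traf1, an adaptor that binds TNF receptor 2 and is induced by NF-κB, read 1139 and 1245 against 1496 and 1114 as deposited and differed by -0.99 ± 0.36 after normalization. Ikbkb, the kinase IKKβ that releases NF-κB, read 983.5 and 1216 against 1613 and 981.2 and differed by -1.10 ± 0.33. Cyld, a deubiquitinase that dampens TNF receptor signalling, read 2283 and 2466 against 3506 and 2878 and differed by -1.11 ± 0.33. On the deposited scale these overlapped, except Cyld, and none of them was called there. Averaged over probe sets, Ikbkb (-0.53) and Traf1 (-0.70) were not called.

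The caspase of death receptor signalling, Casp8, read 90.8 and 78.6 against 182.9 and 61.9 and differed by -1.04 ± 0.35 after normalization. Its deposited signals overlapped, and it was -0.33 and not called on the deposited scale and with median centring. Bid, the protein that caspase-8 cleaves to reach the mitochondrial pathway, lay the other way. It read 326.0 and 361.2 in CD8α+ cells against 80.6 and 72.9 in CD8α− cells, without overlap. The difference was 1.29 ± 0.47 or 2.45-fold, and 2.16 on the deposited scale. Relative to the median gene these were 1.31 and 1.49. Bid was not called without the filter or with a floor of 1. The adaptor Traf2 (-0.14 ± 0.31) was not called, nor were Fadd (-0.15 ± 0.34), Tradd (-0.43 ± 0.33) and Cflar (-0.15 ± 0.38), which act with death domain receptors. The inhibitor Tnfaip3 (0.19 ± 0.37) and the TNF sheddase Adam17 (0.11 ± 0.52) were not called either. Without either CD8α+ replicate none of the 37 was called, and without CD8α− replicate 1 there were 10 brighter and 13 dimmer, when 44.1% of all genes were called.

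**Figure D5:**
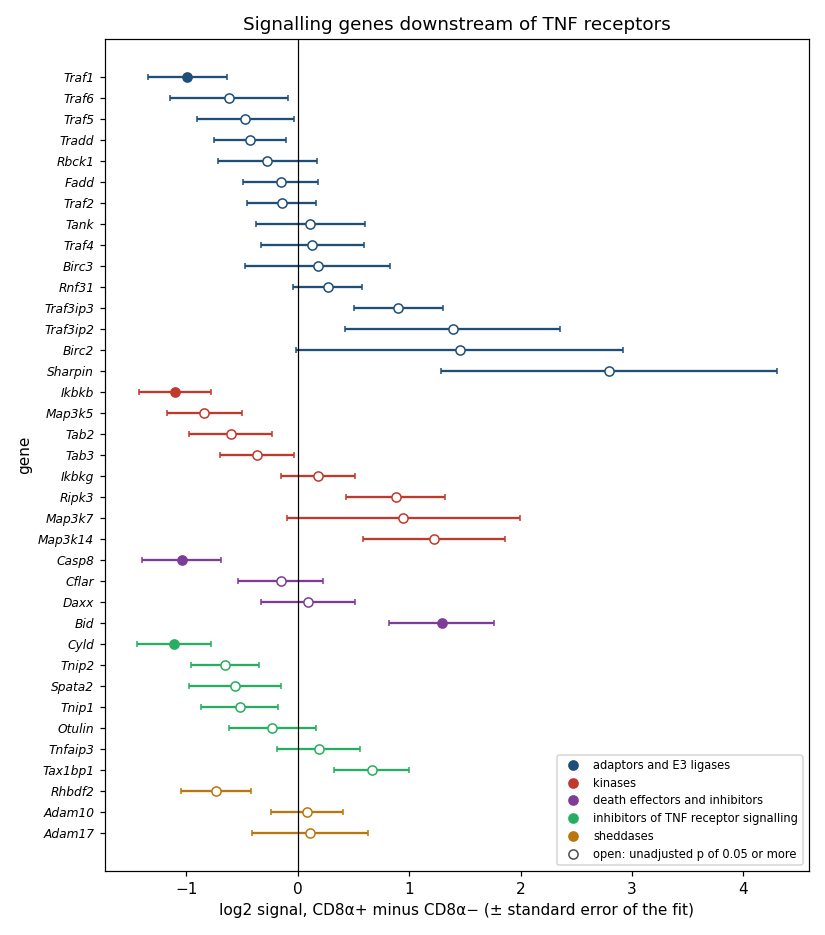
Difference in log2 signal between CD8α+ and CD8α− cells, with the standard error of the limma fit, for the 37 tested genes that act with or below TNF family receptors, coloured by role. Filled points have an unadjusted p under 0.05, and they are Traf1, Ikbkb, Casp8 and Cyld on the left and Bid on the right at 1.29.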

How the data were processed

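The intensity values the authors deposited are linear MAS5 signals, per the submitters' processing notes, and the target to which arrays were scaled is not stated in those sources. Arrays were grouped by the titles in the labels. The 45101 probe sets, 64 of them controls, were named through the platform annotation, and all 59 family probe sets had an Entrez identifier in the RefSeq table. The log2 signals were quantile normalized, raised to a floor of 6.99 (the 25th percentile) and kept for testing where the mean signal was at least 22.97, the median. For each gene the brightest tested probe set stood for it, avoiding names ending in _x_at where possible. The populations were compared over all tested probe sets with limma 3.58.1 in R 4.3.3 (eBayes without trend, two-sided, Benjamini-Hochberg adjustment over probe sets or genes, 2 residual and 2.48 prior degrees of freedom). The fit was tested on simulated data. Only 4 arrays limit the precision.

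The family genes, pathway and marker lists and tests were chosen with earlier results of these data known. Array values are given for genes with an unadjusted p under 0.05, the 10 with the highest mean signal, and others by range or where described. Alternatives changed the scaling, filter, floor, spread model, replicate block, left-out array and probe set choice. Figures were drawn with matplotlib 3.10.9 in Python 3.11.15.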

Additional observations from a re-analysis of the deposited data

How the results depend on the processing

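The 9 called family genes kept their direction under every alternative that could be fitted for them. Family genes called brighter and dimmer were 1 and 8. They were 0 and 2 on the deposited scale, 0 and 11 with a common trimmed mean, 3 and 4 with median centring, 0 and 10 without the filter, 0 and 4 with the filter at the 75th percentile and 0 and 8 with a floor of 1. Leaving out 1 array gave 0 to 3 brighter and 2 to 9 dimmer. Family probe sets called numbered 10, and 3 on the deposited scale, 4 at the 75th percentile and 3 to 15 with an array left out. Those with an adjusted p under 0.05 numbered 0, but 1 with median centring and 0 to 4 with an array left out, the 4 being without CD8α− replicate 1, where the spread is that of the CD8α+ pair.

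Pathway genes called brighter and dimmer were 1 and 4. They were 1 and 0 on the deposited scale, 8 and 0 with median centring, 1 and 8 with no filter, 1 and 7 at the 75th percentile, and 0 and 4 with a floor of 1. With an array left out they ranged from 0 to 10 and from 0 to 13. A group left with 1 array is assumed to vary like the other.

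Sample numbers are shared between the populations, but deviations from the population means of same-numbered arrays correlated at only 0.03, and the labels do not pair them. A replicate block gave 1 brighter and 6 dimmer family genes, and 2 brighter and 0 dimmer pathway genes. It ended the calls of Fas, Tnfsf13b, Traf1, Ikbkb, Casp8 and Cyld.

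Signs turned for some uncalled genes, and the cause was not tested. On the deposited scale and with median centring these were Cd40 (0.48 and 0.49), Ltbr (0.79 in both), Tnfrsf18 (0.22 and 0.23), Tnfrsf1a (0.40 in both) and Tnfrsf9 (0.082 and 0.084). Relative to the median difference of all genes, Cd40, Tnfrsf18, Tnfrsf1a and Tnfrsf9 stayed negative under every scaling. Ltbr did not, and ran from -0.09 to 0.16. With an array left out, ranges that crossed 0 were those of Ltbr (-0.91 to 0.69), Relt (-0.71 to 0.055), Tnfrsf11a (-0.022 to 2.30), Tnfrsf1b (-0.45 to 0.73), Fasl (-1.04 to 0.24), Tnfrsf18 (-0.62 to 0.26), Tnfrsf22 (-0.54 to 0.29) and Tnfsf4 (-0.93 to 0.22). Signal close to background limits the precision for the dim genes.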
